A study of Macaca mulatta with 304 samples.

Results

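The 9 genes described here sense nucleic acid, carry its signal to the interferon genes or carry the signal of secreted interferon. They were chosen by symbol and followed across time after thoracic irradiation. They comprise the transcription factors IRF7, IRF9 and STAT2, the cytosolic sensors IFIH1, DHX58 and ZBP1, and the endosomal receptors TLR7, TLR8 and TLR9. All 9 were among the 21070 genes of the count table, and all 9 were among the 13751 genes that passed the filter on low counts. The samples were whole blood of 28 adult rhesus macaques (Macaca mulatta, Chinese sub-strain), 14 females and 14 males, and 304 RNA libraries were counted. Before irradiation, 2 days ahead, 24 animals gave a control sample, and these animals were their own controls. A lower dose of 9.8 Gy to the thorax was given to 12 animals (6 females and 6 males, 151 samples). A higher dose of 10.7 Gy was given to 16 animals (8 females and 8 males, 129 samples). Every animal was irradiated, so no group of untreated animals was followed over the same time. Per the study's methods, all animals received tramadol or buprenorphine as an analgesic in the first weeks, and animals with fast breathing received dexamethasone, a corticosteroid. Which animals received dexamethasone was not analysed here, so that time after irradiation and these treatments cannot be told apart. The 4 animals without a control sample all belonged to the 10.7 Gy group and entered no test.

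The samples fall into early (Day 3 to 21), medium (Day 30 to 90, 95 samples) and late time points (after Day 90, 53 samples). With a control of the same animal, 24 animals had early and medium samples and 14 had late samples. Of these 14 animals, 12 had received 9.8 Gy and 2 had received 10.7 Gy, and from Day 180 on 6 animals were left. Animals with an earlier last draw therefore left the later comparisons. The total count per sample ranged from 2840219 to 23638161, with a median of 8227563. The library names carry a number that lies in a lower range (called series A here), lies in a higher range (series B) or is 0 (series C), and what these numbers mean was not given in the sources used here. Of the 24 control samples 20 were of series A and 4 of series C, all 4 from 10.7 Gy animals. Up to Day 15 all 24 animals had a sample and a control of the same series, on Day 30 and 40 this held for 4 of 24 animals, and from Day 120 on for 0. Library series and late time therefore cannot be told apart in a comparison with the controls.

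These genes act in the antiviral interferon response. RNA in the cytosol is bound by IFIH1 (MDA5), a helicase that signals through MAVS, and DHX58 (LGP2) is a related helicase without the signaling domain. ZBP1 binds nucleic acid in the left-handed Z form and can start cell death, while TLR7 and TLR8 detect single-stranded RNA and TLR9 detects unmethylated CpG DNA inside endosomes. IRF7 turns on type I interferon genes once a sensor has fired. Secreted interferon is then read by the receptor pair IFNAR1 and IFNAR2, and STAT2 and IRF9 act in the complex ISGF3, which binds interferon response elements and raises many genes, several of these sensors and IRF7 among them. In blood, TLR7 and TLR9 are known from B cells and plasmacytoid dendritic cells, and TLR8 from monocytes and neutrophils.

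All 9 genes are annotated as protein coding in Mmul_10, the build the deposited counts use. IRF7 is at chr14:668505-672316 on the reverse strand, IRF9 at chr7:86248586-86254350 on the forward strand, and STAT2 at chr11:55921112-55940827 on the reverse strand. IFIH1 is at chr12:49338577-49389753, DHX58 at chr16:53222476-53233857 and ZBP1 at chr10:92779584-92795798, each on the reverse strand. TLR7 (chrX:12511357-12534481) and TLR8 (chrX:12563581-12566701) are both on the forward strand, with 29099 bases between them. TLR9 is at chr2:108361487-108379379 on the reverse strand.

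The core of the interferon response element bound by ISGF3, written here as GAAANNGAA, was searched on both strands from 250 bases before to 50 bases after each gene start (RefSeq annotation of Mmul_10). DHX58 and ZBP1 held it, 2 of 9 members, beside 9.08% of the 39298 windows of all genes and 7.95% of the 20769 windows of protein coding genes. The 2 stretches are shown because each holds a pair of overlapping matches just after the gene start, in the first exon. Capitals mark the 2 matches of each, which lie on the opposite strand and so read TTCNNTTTC in the direction of the gene.
DHX58: ctcagtTTCAGTTTCCATTTCcgatttctg
ZBP1: cacacagagaagtTTCATTTTCTTTTTCtc
The DHX58 stretch covers positions 1 to 30 counted from the gene start (chr16:53233828-53233857, reverse strand), with matches at 7 to 15 and 13 to 21. The ZBP1 stretch covers positions 21 to 50 (chr10:92795749-92795778, reverse strand), with matches at 34 to 42 and 40 to 48. The other 7 members held no match of these letters in the window, which says nothing about binding elsewhere, and for IFIH1 and TLR8 the annotated start is the first coding base, so that their windows are not placed at a known start of transcription.

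Levels before irradiation differed widely among the 9 genes. Per kilobase of annotated exon, STAT2 had the highest median in the 24 control samples at 52.7 CPM (counts scaled to a fixed library size of 1e6) per kilobase (lowest 39.6, highest 113.7), followed by IRF9 at 46.4 (26.8 to 84.1). TLR8 at 21.4 (8.84 to 73.7), IRF7 at 18.8 (8.36 to 57.2), IFIH1 at 17.8 (11.7 to 39.5) and ZBP1 at 16.7 (6.18 to 35.6) formed a middle group whose ranges overlapped. DHX58 was lower at 9.74 (6.14 to 23.7) and TLR7 lowest at 1.12 (0.448 to 1.62), and the range of TLR7 overlapped no other. TLR7 rested on a median of 47 counts per sample and reached 3 counts in 300 of 304 samples, so its values are the least precise of the group, and the other 8 members had at least 18 counts in every sample. TLR9 was left out of this order because its annotated model joins unlike transcripts. Of its 5098 exon bases 1796 (35.2%) lie outside the curated transcript, and 1 predicted variant shares 0 bases with it. Reads of those upstream exons and of the curated transcript cannot be told apart, so that the TLR9 values here may in part count reads of a neighbouring gene. STAT2 shares 180 exon bases with APOF on the same strand, and TLR9 shares exon bases with a gene on the opposite strand, which matters only if the counting ignored strand; the strand setting was not given in the sources used here.

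At early time points no member reached the threshold, which was an adjusted p of at most 0.05 together with a change of at least 1.5-fold, by edgeR's quasi-likelihood test with each animal set against its own control. Of the 13751 genes tested 7.53% did so. By adjusted p alone 4 of 9 members were higher, namely IRF7, IFIH1, DHX58 and TLR8, beside 49.1% of all genes that differed in either direction. DESeq2 also called 0 members, and 4 members had an unadjusted p below 0.05. The median log2 fold change was 0.18 over the 9 members and -0.02 over all genes tested.

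IRF7, the factor that switches on type I interferon genes, ranged from 20.4 to 139 CPM in the 24 controls, with a median of 45.95. Over Day 3 to 21 the same animals lay between 37.9 and 140 CPM with a median of 61.8, and 18 of 24 animals were higher than their own control. The 2 ranges overlapped. The log2 fold change was 0.50 ± 0.12 (SE, n = 24 animals, edgeR adjusted p = 0.00126). IRF9 went from a median of 103.1 to 110.8 CPM, a change of 0.12 ± 0.06 (edgeR adjusted p = 0.119), and STAT2 from 191 to 220 CPM, a change of 0.14 ± 0.10 (edgeR adjusted p = 0.251). In both, 16 of 24 animals were higher.

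Among the cytosolic sensors, IFIH1 had a median of 54.7 CPM in controls (36.1 to 121.5) and 72.9 CPM at early time points (53.3 to 112.8). Its log2 fold change was 0.35 ± 0.08 (edgeR adjusted p = 0.00105), with 19 of 24 animals higher. DHX58 went from 33.1 CPM (20.8 to 80.4) to 40.2 CPM (31.1 to 94.3), a change of 0.26 ± 0.09 (edgeR adjusted p = 0.0228), again with 19 of 24 animals higher. In the 16 animals whose early samples and control were all of 1 series, IRF7 had 0.50 (edgeR adjusted p = 0.0203), IFIH1 0.34 (0.0227) and DHX58 0.24 (0.134), and the change of TLR8, Day 3 to 21, was 0.40 (0.0358). Without the replicate block the edgeR adjusted p was 0.0825 for IRF7, 0.105 for DHX58 and 0.170 for TLR8, while IFIH1 stayed below 0.05. ZBP1 changed by -0.03 ± 0.07, with 13 animals higher and 11 lower.

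Of the endosomal receptors, TLR8 had 66.7 CPM in controls (27.6 to 230) and 91.9 CPM at early time points (58.1 to 181), a log2 fold change of 0.39 ± 0.11 (edgeR adjusted p = 0.00493) with 16 of 24 animals higher. TLR7 had a median of 5.61 CPM in controls and 6.50 CPM after, a change of 0.18 ± 0.11 (edgeR adjusted p = 0.163). TLR9 had 195.4 and 187 CPM, a change of -0.05 ± 0.04 (edgeR adjusted p = 0.292). Markers of blood cell types also changed over the same days. All 8 B cell markers fell past the threshold, with a median log2 fold change of -1.06 and a summed level of 333 to 2526 CPM in controls and 191 to 1702 CPM in early samples. Of 7 monocyte markers 3 rose and 0 fell (median 0.49), and of 8 neutrophil markers 1 rose and 0 fell (median 0.03). Erythroid markers rose in 8 of 8 genes (median 1.76), with a summed median of 6356 CPM in controls and 17675 CPM in early samples. The part of these cells in the values of the 3 receptors was not tested.

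At medium time points 0 members were called by edgeR, beside 5.75% of all genes, and DESeq2 also called 0. By adjusted p alone 3 of 9 were higher, beside 45.3% of all genes in either direction, and the same 3 had an unadjusted p below 0.05. IRF7 was at 65.5 CPM (18.6 to 279), a log2 fold change of 0.51 ± 0.13 (edgeR adjusted p = 0.00203) with 20 of 24 animals higher than their control. IRF9 was at 126.2 CPM (73.2 to 204.3), a change of 0.22 ± 0.07 (edgeR adjusted p = 0.0131), also with 20 of 24 animals higher. TLR8 was at 108.8 CPM (50.1 to 192), a change of 0.46 ± 0.12 (edgeR adjusted p = 0.00200) with 18 of 24 higher. The ranges of all 3 overlapped those of the controls. The other 6 members had adjusted p-values of 0.104 to 0.969 by edgeR, with log2 fold changes of 0.17 ± 0.08 for IFIH1, 0.16 ± 0.10 for DHX58, 0.03 ± 0.08 for ZBP1, 0.01 ± 0.09 for STAT2, 0.00 ± 0.06 for TLR9 and -0.14 ± 0.13 for TLR7. In the 4 animals of 1 series throughout, all of the 10.7 Gy group, the changes were 0.56 for IRF7 (edgeR adjusted p = 0.0919), 0.16 for IRF9 (0.480) and 1.01 for TLR8 (0.0547). In these 4 animals IFIH1 had 0.74 (edgeR adjusted p = 0.0531), DHX58 0.41 (0.291) and STAT2 0.30 (0.269). Without the replicate block the edgeR adjusted p over the 24 animals was 0.0572 for the change of IRF7, Day 30 to 90, and 0.0707 for that of TLR8, Day 30 to 90.

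**Figure D1:**
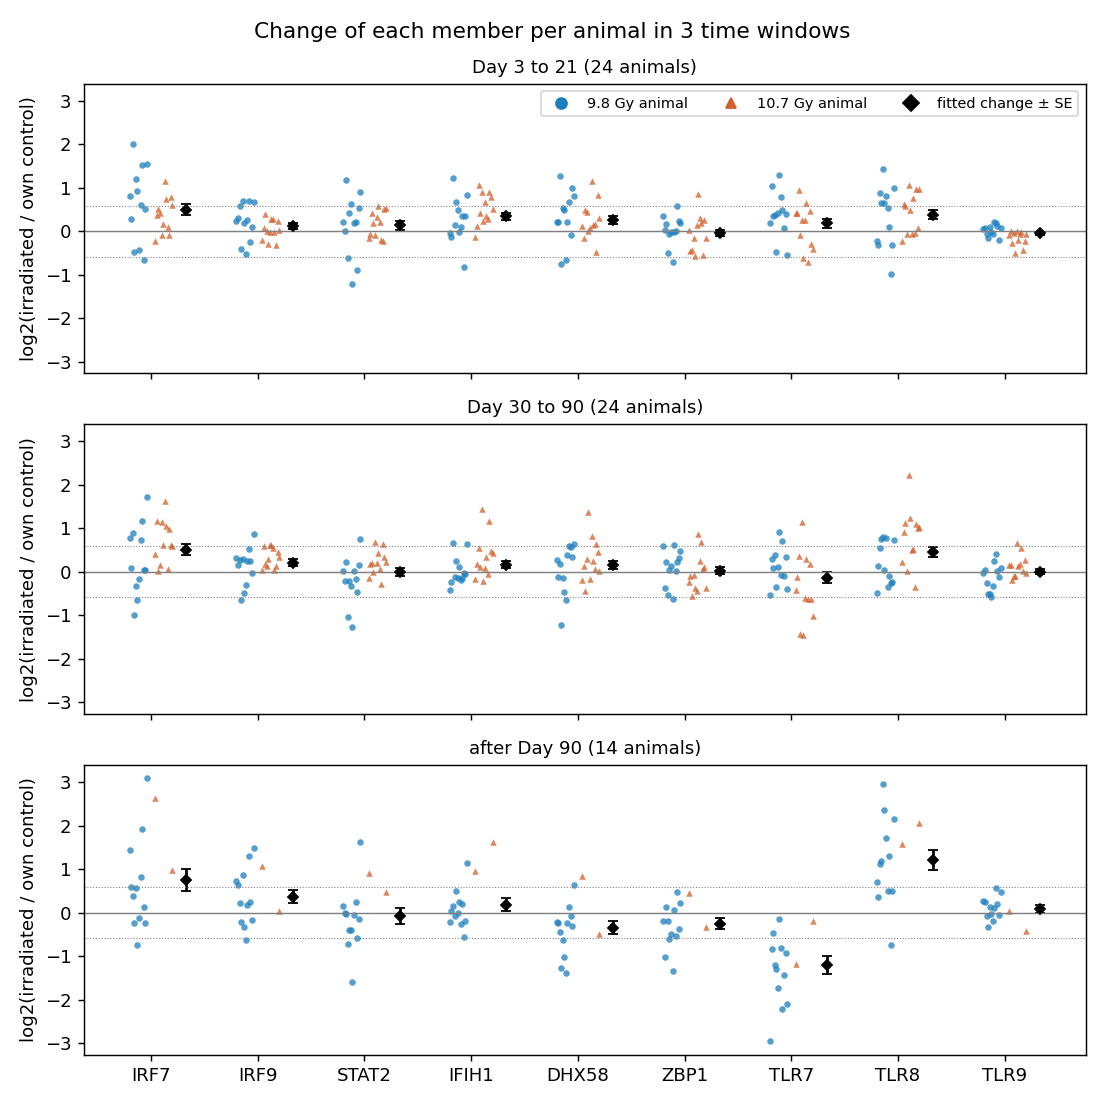
Change of each of the 9 members per animal in the early, medium and late windows. The y axis is log2 of the level in irradiated samples over the animal's own control, circles are 9.8 Gy animals, triangles are 10.7 Gy animals, diamonds are the fitted changes ± SE and dotted lines mark a 1.5-fold change. In the late window all 14 animals lie below 0 for TLR7 and 13 of 14 lie above 0 for TLR8.

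At late time points TLR8 and IRF7 rose and TLR7 fell past the threshold, 3 of 9 members beside 32.5% of all genes. The share of members was thus close to the share of all genes. By adjusted p alone 4 members differed, the fourth being DHX58 with -0.35 ± 0.15 (edgeR adjusted p = 0.0495), beside 55.3% of all genes. The median log2 fold change was 0.08 over the members and -0.13 over all genes, so that the late values of single genes stand on a scale whose middle lay slightly below 0.

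TLR8, a receptor for single-stranded RNA in monocytes and neutrophils, ranged from 33.2 to 230 CPM in the 14 controls with a median of 64.9. After Day 90 these animals lay between 103.1 and 283 CPM with a median of 185. The log2 fold change was 1.22 ± 0.23 (edgeR adjusted p = 2.89e-04), or 2.32-fold. The exception among the 14 animals was animal B1504, which had the highest control value of 230 CPM and a late value of 137.6 CPM. The animal with the largest increase, B1005, went from 33.2 to 259 CPM.

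TLR7, the neighbouring receptor for single-stranded RNA, moved the other way. Its controls lay between 2.24 and 7.83 CPM with a median of 4.92, and its late values between 0.783 and 4.67 CPM with a median of 2.32. All 14 animals were lower, and the log2 fold change was -1.20 ± 0.21 (edgeR adjusted p = 1.43e-04). The level of TLR8 over that of TLR7 in the same sample was a log2 ratio of 3.44 at the median of the 24 controls (2.08 to 6.17), 3.91 in early, 4.33 in medium and 6.25 in late samples (2.58 to 9.10). This ratio of counts, each with 1 added, needs no scaling between libraries, but where TLR7 has few counts it depends on depth. All late samples were of series B or C, whose median depth was lower than that of series A. The late value is over all 53 late samples, animals without a control included. The ranges of control and late samples overlapped. TLR9 had a late change of 0.08 ± 0.09 (edgeR adjusted p = 0.508) with 8 animals higher and 6 lower. Its values may in part count reads of a neighbouring gene, so no contrast with TLR7 is drawn.

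Markers of several blood cell types also changed at late time points, and not only those of cells known for these receptors. T cell markers fell in 5 of 8 genes and rose in 0 (median log2 fold change -0.76). Platelet markers rose in 7 of 7 tested genes (median 0.81), and of 8 erythroid markers 2 rose and 1 fell (median 0.54). Neutrophil markers rose in 8 of 8 genes (median log2 fold change 1.43, summed level 971 to 9061 CPM in controls and 1596 to 18884 CPM in late samples). Of 7 monocyte markers 4 rose and 1 fell (median 0.82, summed level 659 to 4537 and 1210 to 5708 CPM). B cell markers fell in 8 of 8 genes (median -2.04, summed level 333 to 2526 and 47.9 to 912 CPM). For plasmacytoid dendritic cells 7 of 8 listed markers were used, with a summed level of 58.3 to 174 and 18.9 to 109.5 CPM, and of the 4 that could be tested 2 fell (IL3RA and TCF4) and 1 rose (NRP1). No marker of these lists was at 0 in every sample of a window. In whole blood fewer cells of a type and less RNA per cell cannot be told apart, and the part of cell numbers in the changes of TLR7 and TLR8 was not tested.

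IRF7 ranged from 20.4 to 139 CPM in the controls of the 14 animals, with a median of 34.2, and from 20.2 to 274 CPM at late time points, with a median of 56.4. Of 14 animals 10 were higher, and the log2 fold change was 0.76 ± 0.25 (edgeR adjusted p = 0.0172). Of the neutrophil markers 8 of 8 rose in the same window, with a summed median of 3328 CPM in the 24 controls and 7042 CPM in the 53 late samples, and their part in the change of IRF7 was not tested. The ranges of IRF7 overlapped, with the late range reaching above every control, and single animals spread from -0.75 (B1006) to 3.09 (B1506). IRF9 had a change of 0.36 ± 0.15 (edgeR adjusted p = 0.0506) and STAT2 of -0.08 ± 0.18 (edgeR adjusted p = 0.735), so that of the 3 transcription factors 1 was called. IRF7 lost its call when the median over each animal's days was used in place of summed counts (0.56, limma adjusted p = 0.0638).

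The cytosolic sensors did not reach the threshold at late time points. IFIH1 was at 66.02 CPM against 55.6 CPM in controls (0.18 ± 0.15, edgeR adjusted p = 0.295). DHX58 was at 24.5 CPM (17.8 to 53.2) against 29.6 CPM in controls (21.4 to 80.4), with 11 of 14 animals lower, and its adjusted p became 0.162 with TMM scaling and 0.213 with DESeq2. ZBP1 was at 24.2 CPM against 35.6 CPM, a change of -0.26 ± 0.13 (edgeR adjusted p = 0.106) with 9 of 14 animals lower. NK cell markers, with which ZBP1 varied most among the cell lists, fell in 1 of 8 genes (median -0.33, summed level 430 to 3074 CPM in controls and 429 to 2086 CPM in late samples), and their part was not tested.

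By single scheduled day, 12 pairs of 9 members and 15 days were called, 7 higher and 5 lower, beside 12.6% of all pairs of a gene and a day. Among all genes the called share of Day 3 and Day 6 was 11.5% and 11.5%. Day 9 had 7.58%, Day 15 had 6.01% and Day 21 had 10.4%. Day 30 had 5.9%, Day 40 had 6.92%, Day 60 had 4.23% and Day 90 had 7.06%. The share was far higher at Day 120 (31.8%), Day 150 (31.5%), Day 180 (18.7%) and Day 210 (29.8%) than at Day 240 (6.76%) or Day 270 (0.00727%), with 6 animals from Day 180 on. TLR8 held 5 of the 12 pairs, TLR7 4, IRF7 2 and ZBP1 1, and IRF9, STAT2, IFIH1, DHX58 and TLR9 held 0. All days of an animal share its 1 control sample, so that values of different days are not independent.

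**Figure D2:**
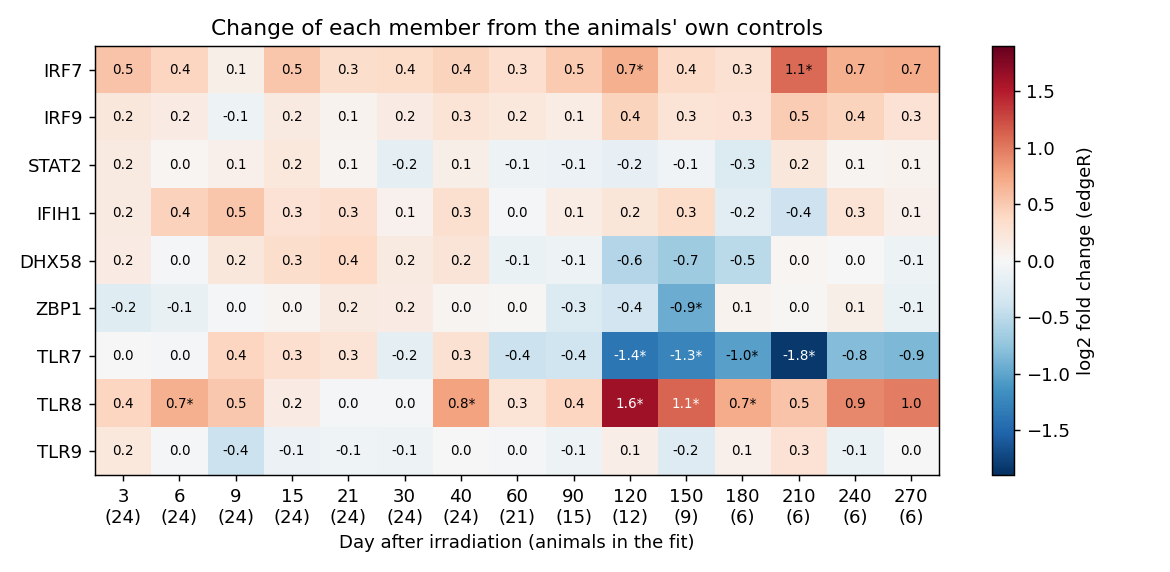
Fitted log2 fold change of each member on each of 15 scheduled days against the animals' own controls, red for higher and blue for lower, with the number of animals under each day. Stars mark the 12 pairs past the threshold, which lie in the rows of TLR8, TLR7, IRF7 and ZBP1, 10 of them from Day 120 to 210 and the lowest value at Day 210 for TLR7.

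TLR8 was called on Day 6 (0.67 ± 0.13, 19 of 24 animals higher), was near its control level on Day 21 (-0.03) and Day 30 (-0.04), and was called again on Day 40 (0.76 ± 0.14, 21 of 24 higher). The Day 40 median was 133.2 CPM. On Day 120 the 12 animals with a control ranged from 118.5 to 510 CPM with a median of 228.7, against 33.2 to 125.5 CPM with a median of 64.9 before irradiation. All 12 were higher than their own control, and 10 lay above every control of these 12 animals. The highest of all 24 controls was 230 CPM, in B1504, which was last drawn on Day 102. The change of that day was 1.604 (edgeR adjusted p = 1.27e-04), followed by 1.11 on Day 150 (9 of 9 animals higher) and 0.71 on Day 180 (5 of 6 higher). On Day 210, 240 and 270 the changes were 0.55, 0.91 and 0.97, each with 5 of 6 animals higher (edgeR adjusted p = 0.0347, 0.0676 and 0.0784). None of the 3 was called in the main fits, Day 210 by its fold and the others by their adjusted p. Day 210 was called with TMM scaling (0.64), DESeq2 (0.67) and no filter on low counts (0.62). DESeq2 also called Day 240 (1.00) and Day 270 (1.11). The stricter filter, the fit without the replicate block and the deposited log2 values did not call these days. Without animal B2502 the Day 180 value was 0.57 and below the fold threshold.

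TLR7 had its highest values in the second and the third week, with 0.40 on Day 9 (edgeR adjusted p = 0.0123) and 0.32 on Day 15 (0.0133), both under 1.5-fold. It was lower by -1.38 on Day 120 (11 of 12 animals, edgeR adjusted p = 6.04e-04), -1.25 on Day 150 (9 of 9), -1.03 on Day 180 (6 of 6) and -1.83 on Day 210 (6 of 6, edgeR adjusted p = 0.00153). In the 6 animals drawn to Day 270, the controls lay between 3.95 and 5.87 CPM. The Day 180 values lay between 1.40 and 3.94 CPM and the Day 210 values between 0.459 and 2.7995 CPM, so that neither day overlapped the controls of the same animals. On Day 240 all 6 animals were still below their own control (0.270 to 4.77 CPM, change -0.83, edgeR adjusted p = 0.159). On Day 270 the animals spread from 0.584 CPM in B1503 to 12.3 CPM in B1003, and the latter was above its control of 5.63 CPM.

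**Figure D3:**
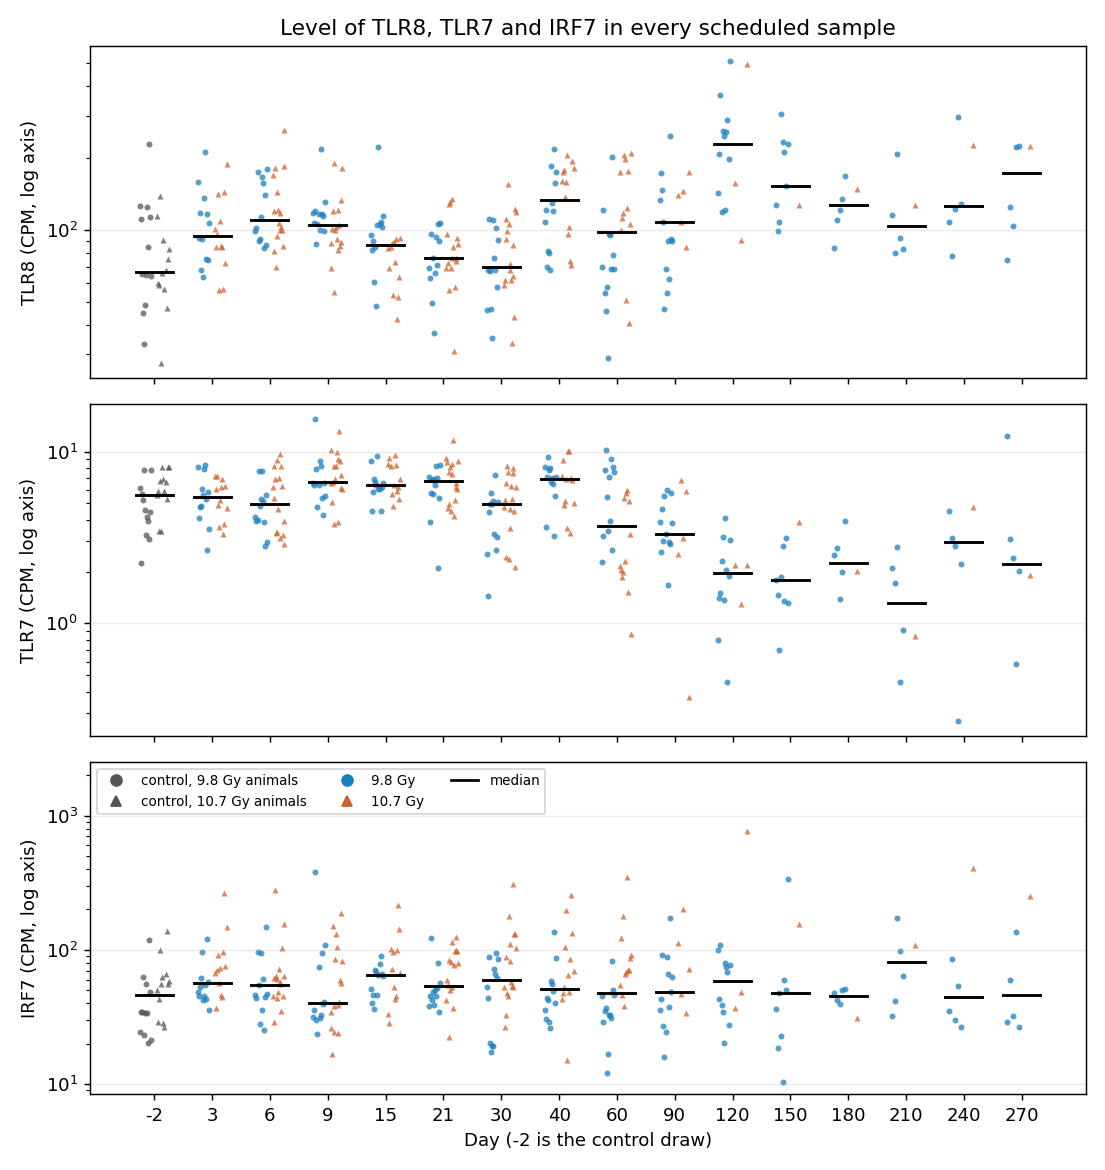
Level of TLR8, TLR7 and IRF7 in every scheduled sample, in CPM on a log axis, by day (-2 is the control draw), with circles for 9.8 Gy and triangles for 10.7 Gy animals, grey for controls and a black line at the median. TLR8 is highest and TLR7 low on Day 120, and IRF7 shows single high samples on most days; animals without a control are included.

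IRF7 had a positive change on 15 of 15 days, from 0.11 on Day 9 to 1.07 on Day 210. It was called on Day 120 (0.68, edgeR adjusted p = 0.0423, 9 of 12 animals higher) and on Day 210 (1.07, 0.0405). On Day 210 only 4 of 6 animals were higher, and the call was lost without B1502 (0.79), without B1503 (0.81) or without B2502 (0.85). The 6 animals had 172 CPM in B1502, 98.2 in B1503, 109.4 in B2502, 63.8 in B1505, 41.6 in B1004 and 32.3 in B1003 on that day, against controls of 33.9, 20.4, 26.6, 48.9, 62.6 and 34.6 CPM. On Day 240 (0.67) 4 of 6 animals were higher than their control. On Day 270 (0.70) only 2 were higher and 4 were lower. The 2 higher animals were B2502 with 253.9 CPM and B1503 with 135.2 CPM. IRF9 was positive on 14 of 15 days with 0.48 at most, and STAT2 had no day with an adjusted p under the threshold.

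Of the cytosolic sensors and TLR9, 1 pair was called by day. IFIH1 was higher by adjusted p on 6 days, with a largest change of 0.52 on Day 9 (edgeR adjusted p = 0.00242, 19 of 24 animals higher). DHX58 had 0.38 on Day 21 (edgeR adjusted p = 0.00124), -0.55 on Day 120 (0.0208) and -0.68 on Day 150 (0.0801). ZBP1 was called on Day 150 (-0.95, edgeR adjusted p = 0.0201), where 8 of 9 animals were lower, with 7.24 to 41.2 CPM against 15.9 to 74.1 CPM in their controls. TLR9 had its lowest day on Day 9, when 22 of 24 animals were lower (-0.41 ± 0.08, edgeR adjusted p = 2.56e-04, 160 CPM at the median against 195.4 CPM), after a higher Day 3 (0.20, edgeR adjusted p = 3.59e-04, 21 of 24 higher).

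The signaling genes around these members were followed with a list of 40 genes, which holds adaptors, kinases, receptors, regulators and other sensors. At early time points 0 of 40 were called, with a median log2 fold change of 0.01. Of the same 40, 1 was called at medium time points, IFNGR1, a chain of the interferon gamma receptor, with 0.60 ± 0.10 (edgeR adjusted p = 1.32e-05). At late time points 10 rose and 4 fell of 40 (median 0.07), a share near the 32.5% of all genes called in that window, so the count itself is no result about the list. The highest were IFNGR1 (1.59 ± 0.23), IFNGR2, its partner chain (1.17 ± 0.12), and AIM2, a sensor of cytosolic DNA (0.99 ± 0.22). The lowest were USP18, which dampens signaling at the type I interferon receptor (-0.98 ± 0.21), IKBKE, a kinase upstream of IRF7 (-0.79 ± 0.17), and TRAF3, an adaptor below MAVS and the endosomal receptors (-0.66 ± 0.16).

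A list of 33 interferon-induced genes moved more than the members at early time points, when 18 rose and 0 fell, with a median log2 fold change of 0.70. Of all genes 5.79% rose and 1.75% fell in that window. At medium time points 7 rose and 0 fell (median 0.39), beside 4.48% of all genes that rose and 1.27% that fell. At late time points 4 rose and 6 fell (median 0.09), also a share near that of all genes, with TRIM22 (1.17 ± 0.20) and SAMD9L (1.12 ± 0.25) among those that rose and OAS2 (-0.82 ± 0.15) and ISG15 (-0.77 ± 0.24) among those that fell; these 4 were named after their values were seen.

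Whether dose, sex or follow-up changed the response was tested as an interaction with irradiation, and 0 members were called in any of the 5 tests by edgeR or by DESeq2. At early time points 0% of genes differed between doses, and 1 member had an unadjusted p below 0.05, TLR9 with -0.15 for 10.7 Gy minus 9.8 Gy (95% interval from the SE -0.29 to -0.02). At medium time points 3.24% of all genes differed between doses. TLR8 then rose by a mean of 0.80 ± 0.67 (SD, n = 12) in 10.7 Gy animals and 0.20 ± 0.49 (SD, n = 12) in 9.8 Gy animals, a difference of 0.52 (0.10 to 0.94, edgeR adjusted p = 0.146). STAT2 differed by 0.42 (0.10 to 0.74, edgeR adjusted p = 0.122) and TLR9 by 0.24 (0.02 to 0.47, edgeR adjusted p = 0.207), and these 3 had an unadjusted p below 0.05. For TLR7 the interval ran from -0.94 to -0.02 (edgeR unadjusted p = 0.0523, adjusted p = 0.224). For IFIH1 it ran from 0.002 to 0.63 (edgeR unadjusted p = 0.0582, adjusted p = 0.236). These intervals use a normal quantile and are narrower than the edgeR test implies. Both thus exclude 0 at an unadjusted p above 0.05. As 4 controls of 10.7 Gy animals and 0 of 9.8 Gy animals were of series C, dose and series overlap in this test.

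Between females and males 0% of genes differed at early and 0% at medium time points, with 0 and 1 members at an unadjusted p below 0.05. That member was ZBP1, with 0.37 for females minus males at medium time points (0.07 to 0.66, edgeR adjusted p = 0.999). For TLR8, an X chromosome gene like TLR7, the interval at medium time points was -0.73 to 0.19, and for TLR7 it was -0.38 to 0.62. Within 9.8 Gy, the 5 animals drawn to Day 270 and the 7 with an earlier last draw differed in 0% of genes at early time points, and 0 members had an unadjusted p below 0.05. The intervals of this last test were wide, from -0.51 to 1.16 for IRF7 and from -0.71 to 0.72 for TLR8, so that a difference of 1.5-fold either way lay within the interval for TLR8.

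In some samples several members were raised at once. Of 256 samples with a control of the same animal, 63 had 1 member at least 2-fold above that control, 30 had 2, 25 had 3 or more and the rest had 0. In the other direction 53 of them had 1 member at least 2-fold below the control, 19 had 2, 8 had 3, 2 had 4, 1 had 5 and the rest had 0. Of the 25 samples with 3 or more raised members, 7 had 5 or more. The 7 samples came from 5 animals. On Day 9 they were from B1003, B1506 and B2501, on Day 40 from B2005, on Day 150 again from B1506, and on Day 240 and 270 from B2502. B1003, a 9.8 Gy male, had on Day 9 the highest ZBP1 (79.6 CPM) and TLR7 (15.5 CPM) of all samples, with STAT2 at 1100 CPM, IFIH1 at 268 CPM and DHX58 at 277 CPM. B1506, a 9.8 Gy female, had IRF7 at 338 CPM, IRF9 at 281 CPM and STAT2 at 805 CPM on Day 150. B2502, a 10.7 Gy female, had IRF7 at 407 CPM on Day 240 and IFIH1 at 267 CPM on Day 270.

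In these 7 samples 24 to 32 of the 33 interferon-induced genes were also at least 2-fold above the own control. The median number raised was 2 of 33 in the samples with no raised member and 21 of 33 in the 25 samples with 3 or more. Both counts were set against the same control library, and interferon also raises several members, so the counts are not independent. The 25 samples differed between the windows. In the 7 early ones IRF7 and DHX58 were each raised in 6 and IRF9 in 0, and a median of 24 interferon-induced genes was raised (11 to 32). In the 13 late ones IRF7 and IRF9 were raised in 13 and TLR8 in 10, and the median was 10 interferon-induced genes (4 to 30). These 13 came only from B1003, B1503, B1506 and B2502, most of them repeated draws set against the same control. The control of B1503 had the lowest IRF7 of all controls (20.4 CPM). Window and animal therefore cannot be told apart in this contrast.

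**Figure D4:**
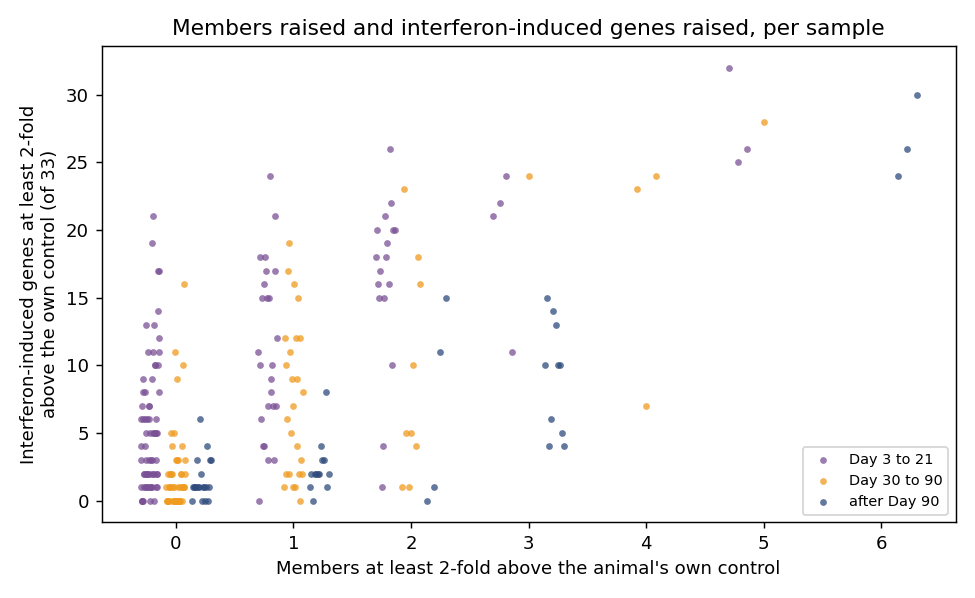
Each point is 1 of 256 samples, with the number of members at least 2-fold above the animal's own control on the x axis and the number of 33 interferon-induced genes raised in the same way on the y axis, colored by time window. Samples with 5 or more raised members have 24 to 32 interferon-induced genes raised, and late samples with 3 raised members reach down to 4. Both numbers use the same control library of the animal.

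The highest levels of the series came from an animal with no control. B2507, a 10.7 Gy female, had 766 CPM of IRF7, 425 CPM of IRF9, 1961 CPM of STAT2, 546 CPM of IFIH1 and 527 CPM of DHX58 on Day 120, its last draw. The next highest of all 304 samples were 407, 281, 1100, 268 and 277 CPM. On Day 90 the same animal had 71.7 CPM of IRF7, 140 CPM of IRF9, 175 CPM of STAT2, 59.4 CPM of IFIH1 and 16.8 CPM of DHX58. Its ZBP1 went from 21.5 CPM on Day 90 to 16.5 CPM on Day 120, and its TLR7 from 0.373 to 2.18 CPM. B2506, the other animal without a control on that day, had 48.7 CPM of IRF7 and 32.2 CPM of DHX58.

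Draws outside the schedule entered the windows, the counts of raised members and the correlations, but no fit by day. On Day 172 B1506 had IRF7 at 131.1 CPM and TLR7 at 1.07 CPM, changes of 2.61 and -2.65 from its control. On Day 77 B2501 had IRF7 at 140 CPM, 2.27 above its control, with ZBP1 at 1.32 and TLR7 at -2.37. On Day 71 B2004 had TLR7 at 0.395 CPM, a change of -3.51, and on Day 94 B2504 had IFIH1 at 136.9 CPM (1.62) and TLR8 at 196.5 CPM (2.06). These are log2 changes of single samples, and in all 7 unscheduled draws with a control TLR7 was lower than in that control.

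Over all 304 samples the members fell into sets that varied together. These correlations of log2 CPM are descriptions, since samples of 1 animal share that animal and libraries share depth and cell makeup. IRF7 correlated with IRF9 (Pearson r = 0.89) and STAT2 (0.84), and STAT2 with DHX58 (0.75) and IFIH1 (0.68). TLR7 and TLR8 were at -0.35, and ZBP1 and TLR8 at -0.48. With summed marker levels, TLR8 was at 0.79 for monocytes and 0.76 for neutrophils, TLR7 at 0.69 for plasmacytoid dendritic cells and 0.65 for B cells, and ZBP1 at 0.65 for NK cells. With neutrophil markers IRF9 was at 0.60, TLR9 at 0.52, IRF7 at 0.48 and STAT2 at 0.42. TLR9, whose values may in part count reads of a neighbouring gene, was at 0.05 with B cell markers. IFIH1 and DHX58 lay between -0.32 and 0.14 for every list.

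**Figure D5:**
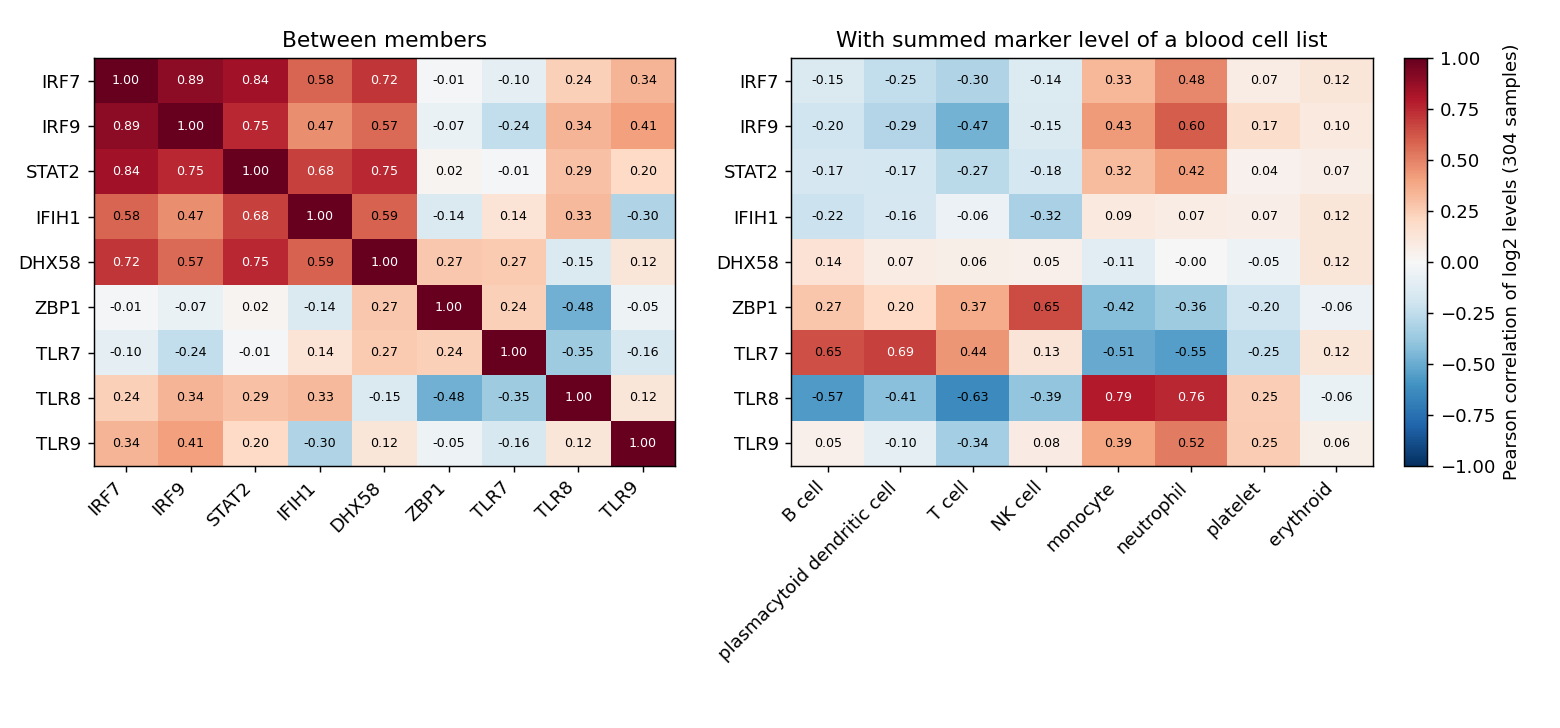
Pearson correlation of log2 levels over 304 samples between the 9 members (left) and of each member with the summed marker level of 8 blood cell lists (right), from blue at -1 to red at 1. IRF7, IRF9, STAT2, IFIH1 and DHX58 form 1 block on the left, and on the right TLR8 is high with monocyte and neutrophil markers and TLR7 with B cell and plasmacytoid dendritic cell markers.

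The genes outside the group with the most similar pattern were named by the highest Pearson r over the 304 samples. For IFIH1 they were DDX58 (0.91), the sister sensor RIG-I, IFIT3 (0.88) and EIF2AK2 (0.88). For DHX58 they were CMTR1 (0.84), PARP12 (0.83) and OAS3 (0.83), and for STAT2 PARP14 (0.82), RNF213 (0.81) and TRIM25 (0.79). For IRF7 they were SECTM1 (0.85), UBE2L6 (0.82) and CDHR5 (0.81), of which CDHR5 is the next gene upstream on the same strand, 914 bases away, with 0 shared exon bases. IRF9 was most like SECTM1 (0.77), PSMB9 (0.76) and RHBDF2 (0.76). TLR8 was most like RNF13, CCPG1 and PTPN12 (0.91 each), TLR7 like CD38 (0.74), SNX5 (0.74) and SMC6 (0.72), TLR9 like NR1H2 (0.86), ADRM1 (0.82) and TRAF7 (0.82), and ZBP1 like GFI1 (0.76), ACOT11 (0.76) and LLGL2 (0.73).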

How the data were processed

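Whole blood RNA of rhesus macaques was depleted of ribosomal RNA, sequenced with a stranded kit, trimmed with cutadapt 2.10, aligned with STAR 2.7.6a to Mmul_10 and counted with Subread 2.0.1, per the submitters' processing notes. The authors deposited raw counts per gene and a second table of log2 values after upper quartile scaling. Here the deposited counts were tested with edgeR 4.0.16 (R 4.3.3) by its quasi-likelihood test, after upper quartile scaling and with a block for each animal. P-values were adjusted (Benjamini-Hochberg) over the 13751 genes that reached 3 counts in 80% or more of the samples. Within a window, all of an animal's irradiated samples were added up, which gave 1 control and 1 summed library per animal. A gene was called at an adjusted p of at most 0.05 and 1.5-fold or more. Levels are CPM with upper quartile scaling, and log2 CPM used a prior count of 2. SE is the log2 fold change over the square root of F.

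Samples with the same animal pair by design. The correlation of an animal's deviations with its own control was 0.35 to 0.74 (median 0.60), the highest for its own control in 24 of 24 animals, and 0 sample pairs were identical. P-values over animals measure the spread between animals, and each animal's control was 1 sample. The members and the gene lists were chosen with earlier results of these data known. Named were all 9 members, the 3 highest and 3 lowest called genes of the 40-gene list in each window, and for each member the 3 genes with the highest correlation, leaving out genes with a LOC name. Alternatives were TMM scaling, DESeq2 1.42.0, 2 other filters, no replicate block, the deposited log2 values with limma 3.58.1, the median of an animal's days, samples of 1 library series, 1 fit over all samples with and without library series, and leaving out each animal. The scripts were tested on simulated counts. Figures were drawn with Matplotlib 3.10.9 in Python 3.11.15. Of the 8 markers of a cell list, 1 each of the plasmacytoid dendritic cell, monocyte and platelet lists was not used here. Each test is limited by its number of animals, and TLR7 also by its low counts.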

Additional observations from a re-analysis of the deposited data

Results flagged for a closer look

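In groups of 4 to 10 samples of 1 dose and day, 54 tests for a sample far from the others were made in 6 groups, and 5 passed Dixon's 95% critical value, where chance gives about 1 in 20. All 5 were 9.8 Gy samples. On Day 150 animal B1506 stood above the other 7 of 8 animals with 281 CPM of IRF9 (next 125.7), 805 CPM of STAT2 (next 245) and 81.9 CPM of DHX58 (next 24.5). These 3 values are from 1 library. On Day 240 animal B1503 had the highest IFIH1 of 5 animals with 97 CPM (next 56), and on Day 270 animal B1502 had the lowest IFIH1 of 5 animals with 26.1 CPM (next 46.5).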

How the results depend on the processing

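The number of members called in a window kept within 1.5 times of the main count under every alternative run (0, 0 and 3, or 2 for late time points with the median of an animal's days). Leaving out single animals gave 0 to 0, 0 to 0 and 3 to 3 in the windows, and 0 to 0 for follow-up. For the day pairs each of the 6 animals was left out on 1 of Day 180, 210, 240 and 270 at a time, which gave 11 to 13 pairs, and leaving out B2502 ended a call on both Day 180 (TLR8) and Day 210 (IRF7). The Day 210 call of IRF7 also ended without B1502 or B1503. Other calls appeared when an animal was left out. For TLR8 these were Day 210 without B1503 or B1505 and Day 270 without B1003. DHX58 was then called on Day 180 without B1503, and on Day 210 IFIH1 without B1502 and IRF9 without B1004. Earlier days were not run this way. By scheduled day, 1 fit over all samples with library series called 27 pairs and without it 19, both with all 12 of the main fits. Other settings gave 12 to 17. With 1 fit, Day 240 and 270 were called for IRF7, TLR7 and TLR8, and the spread was then shared with days of more animals. On Day 270 IRF7 was above the own control in only 2 of 6 animals. Changes moved as well: with library series IRF7 on Day 240 was 1.45 against 0.67, and TLR7 on Day 270 was -0.71 against -0.86. The fit with library series also called members that held no day pair in the main fits. These were STAT2 on Day 210 (0.59) and 270 (0.60), IFIH1 on Day 150 (0.68) and 270 (0.74 against 0.09) and DHX58 on Day 40 (0.65). Without the replicate block the windows gave 0, 0 and 3, day pairs 13 (11 shared), and dose and follow-up 0. TLR8 on Day 180 was then at 0.65 (adjusted p = 0.0678), and 0 genes differed by dose at medium time points, against 445 with the block. The fit within 1 series was not run for late time points, where 1 animal had it.

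Small changes with no call changed sign, and the cause was not tested. STAT2, Day 30 to 90, (0.01) was at -0.0029 without the replicate block, -0.027 with deposited log2 values, -0.045 with the median of days and -0.025 to 0.061 without single animals. TLR9, Day 30 to 90, (0.0034) was at -0.0039 with at least 10 counts, -0.013 with deposited log2 values, -0.019 with the median of days and -0.021 to 0.027 without single animals. ZBP1, Day 30 to 90, was at -0.023 without the replicate block and -0.086 within 1 series, and TLR7, Day 30 to 90, at 0.18 within 1 series. STAT2, after Day 90, was at 0.017 with TMM, 0.042 with DESeq2, 0.011 with no filter and -0.19 to 0.037 without single animals. The dose difference of ZBP1 was 0.0013 without the replicate block. The follow-up difference without single animals ran from -0.058 to 0.22 for IRF9, -0.20 to 0.042 for ZBP1 and -0.21 to 0.19 for TLR8.
The middle of all late changes was -0.13 with upper quartile scaling, -0.03 with TMM and -0.01 with DESeq2. Late values kept their direction under these scalings for IRF7 (0.76 to 0.87), TLR8 (1.22 to 1.34) and TLR7 (-1.20 to -1.08), and the adjusted p of IRF9, after Day 90, went from 0.0506 to 0.0266 and 0.0109.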
